A study of Homo sapiens with 20 samples.

Results

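The 10 genes described here encode the reverse transcriptase of telomerase (TERT), the 6 subunits of shelterin (TERF1, TERF2, TERF2IP, POT1, TINF2 and ACD), the histone H3.3 depositing pair ATRX and DAXX, and the telomere helicase RTEL1. They were listed by name, by their role at telomeres, among the 27697 genes tested. All 10 had at least 1 count in total in each condition and were tested. They were measured by poly(A) RNA-seq in NGP, a human neuroblastoma cell line, in 10 samples treated with the racemic mixture of nutlin-3 at 8 µM and 10 samples treated with ethanol as vehicle. Nutlin-3 binds MDM2, the ubiquitin ligase that holds p53 down. All samples come from the same line, so the 10 replicates per group are cultures of 1 model, and the labels give no treatment time and no genotype. Where a level falls in such bulk samples, fewer cells that express the gene and less RNA per cell cannot be told apart.

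Telomerase adds telomeric repeats to chromosome ends. TERT is its catalytic subunit, TERC is the RNA that carries the template, and dyskerin (DKC1) with its partners keeps that RNA stable. Shelterin coats the repeats: TERF1 and TERF2 bind the double-stranded part, POT1 binds the single-stranded overhang, ACD (the protein TPP1) joins POT1 to TINF2 and brings telomerase to the end, and TERF2IP (the protein RAP1) is held there by TERF2. ATRX and DAXX place the histone variant H3.3 in telomeric and other repeats, and RTEL1 unwinds telomeric loops before replication. In neuroblastoma, those tumours that keep their telomeres do so mostly by high TERT expression or, often with ATRX lost, by recombination between telomeres.

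The estimated counts that kallisto assigned to the transcripts of each gene were summed, and the counts of each sample were put on a scale of 1000000 counts (CPM) with TMM factors and compared between conditions with the edgeR quasi-likelihood F-test over all 27697 genes. A gene was called significantly differentially expressed (SDE) at 5% FDR after Benjamini-Hochberg adjustment. The log2 fold change (LFC) is nutlin minus vehicle throughout, and the standard errors (SE) of LFCs are approximate. Totals of estimated counts ranged from 14455477 to 19532971 per vehicle sample and from 15078052 to 17442896 per nutlin sample. MDM2, itself switched on by p53, lay at 199, 250 and 290 CPM (lowest, median and highest) in vehicle and at 4797, 5659 and 6005 CPM in nutlin, with an LFC of 4.51. The neuroblastoma markers HAND2, a transcription factor of the sympathetic lineage, and TH, the first enzyme of catecholamine synthesis, had means of 1039 and 511 CPM in vehicle and 882 and 786 CPM in nutlin. Of the 5 leukocyte markers, 3 were called higher after nutlin, with a summed level of 2.83 to 4.44 CPM in vehicle and 9.37 to 11.7 CPM in nutlin, while PTPRC had a mean of 0.085 and 0.16 CPM and CD3E was not tested. Of 8 mesenchymal markers 2 were called higher and 3 lower, and of 4 Schwann cell markers 1 was called lower and SOX10 was not tested. All 8 proliferation markers, MKI67 and PCNA among them, were called lower, and their sum fell from between 2956 and 3546 CPM to between 528 and 686 CPM. The part of the proliferation markers in the results that follow was not tested.

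TERT, DAXX, ACD, RTEL1, POT1 and TERF1 fell after nutlin and TERF2IP rose, each with every nutlin sample on one side of every vehicle sample. TERF2 fell slightly and ATRX rose slightly, both with overlapping groups, and TINF2 was not called. In all, 9 of the 10 genes were SDE, 7 lower and 2 higher. This count has to be read against the whole dataset, in which 58.8% of the genes tested were SDE, 26.5% lower and 32.3% higher, and in which 80.2% were SDE among those that averaged 1 CPM or more. The 2 groups did not overlap for 7 of the 10 genes, against 28.8% of all genes tested. All 10 averaged 1 CPM or more, and the share without overlap among such genes was not computed, so the 28.8% is not a matched value. The median LFC was −0.61 over the 10 genes, 0.19 over all genes tested and −0.08 over those that averaged 1 CPM or more.

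**Figure D1:**
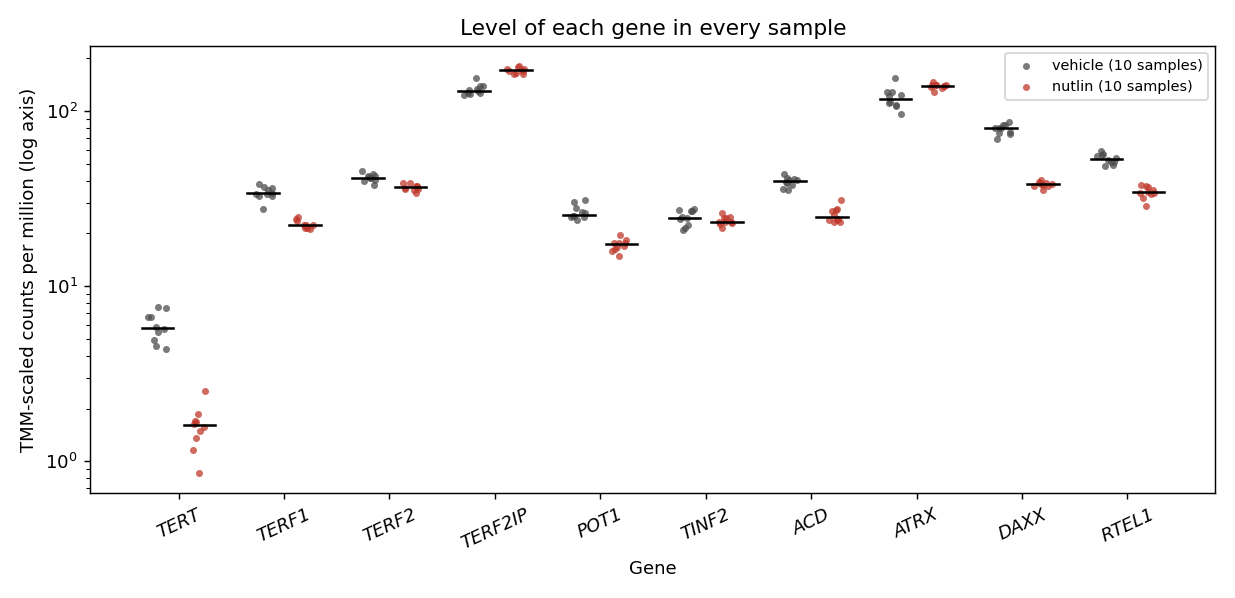
Level of each of the 10 genes in every sample, as CPM with TMM factors on a log axis, with grey points for the 10 vehicle samples, red points for the 10 nutlin samples and a bar at the median of each group. TERT lies lowest in both groups, and its 10 nutlin samples (0.86 to 2.53 CPM) all lie below its 10 vehicle samples (4.40 to 7.56 CPM).

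TERT had the largest change of the 10. Its level was 4.40, 5.80 and 7.56 CPM (lowest, median and highest) in vehicle and 0.86, 1.60 and 2.53 CPM in nutlin. The highest nutlin sample was thus below the lowest vehicle sample. The LFC was −1.90 (SE 0.14), a 3.74-fold fall with an adjusted p of 5.05e-13 by the edgeR quasi-likelihood test, and only 1.45% of the genes tested had a lower LFC. TERT was also the least expressed of the 10 genes, with a mean of 90.6 estimated counts per vehicle sample and 24.7 per nutlin sample, so that counting error is larger for it than for the others.

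Most TERT counts fell on a pair of transcripts. TERT-201, the full-length coding transcript of 16 exons, had 36.5, 48.2 and 66.9 estimated counts (lowest, median and highest) in vehicle and 2.36, 15.5 and 26.0 in nutlin. TERT-204, annotated as a retained-intron transcript, had 13.9, 32.6 and 51.6 estimated counts in vehicle and 0, 5.21 and 14.8 in nutlin. Both fell, with LFCs of −1.72 (adjusted p = 2.8e-04) and −2.35 (adjusted p = 2.0e-04) by the edgeR test over all transcripts. TERT-204 lacks exons 7 and 8 of TERT-201, a stretch of 182 bases, and exon 11. Loss of exons 7 and 8 is the known beta deletion, which shifts the reading frame, and no active reverse transcriptase is made from it. The join of exon 6 to what follows is therefore shown for both, from GRCh38 on the minus strand of chromosome 5, with the 15 bases downstream of the join in capitals:
TERT-201: gccttcaagagccacGTCTCTACCTTGACA
TERT-204: gccttcaagagccacGTCCTACGTCCAGTG
The left 15 bases, at chr5:1278641-1278655, are the end of exon 6 in both. In TERT-201 they are followed by exon 7 (from chr5:1272266-1272280) and in TERT-204 by exon 9 (from chr5:1268619-1268633). The second join occurs in 2 of the 5 TERT transcripts in the files, TERT-203 and TERT-204. Reads over either join were not counted. Estimated counts on TERT-204 can also come from its retained intron, so that they are not a measure of the beta deletion. TERT-204 held 35.6% ± 9.7 (SD, n = 10) of TERT estimated counts in vehicle and 25.3% ± 17.5 (SD, n = 10) in nutlin. Its share of the gene was not called changed (adjusted p = 0.776, edgeR diffSpliceDGE), and its mean in nutlin was 6.25 estimated counts. The LFC of TERT was −2.41 when the effective lengths of the transcripts entered as an offset. With limma it was −1.36 on log2(TPM + 1) and −2.19 on log2(TPM + 0.1). With protein_coding transcripts only it was −1.49 with TMM factors computed anew and −1.64 with the library scaling of all transcripts kept. TERT was called lower in each.

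The 3 genes whose log2 CPM followed TERT most closely over the 20 samples, among 15168 genes that averaged 1 CPM or more, were PLCXD1, ADAM11 and ARHGEF10, with Pearson correlations of 0.97 each. The samples lie in 2 groups that differ for all of these genes, which by itself gives a high correlation. For deviations from the group means the correlations were 0.70, 0.65 and 0.65. These genes were picked as the highest of 15168, and the values are a description.

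Among the double-strand binding subunits of shelterin, TERF1 fell clearly and TERF2 little. TERF1 lay at 27.6, 33.9 and 38.4 CPM (lowest, median and highest) in vehicle and at 21.1, 22.4 and 24.7 CPM in nutlin. The groups did not overlap, and the LFC was −0.60 (SE 0.05, adjusted p = 6.48e-12). TERF2 lay at 37.9, 41.7 and 45.3 CPM in vehicle and at 34.1, 36.8 and 38.8 CPM in nutlin. All 10 nutlin samples were below the vehicle median, and 8 of them were below every vehicle sample. Its LFC was −0.19 (SE 0.04, adjusted p = 5.95e-05), a 1.14-fold fall. With protein_coding transcripts only and TMM factors computed anew, which moved the LFC of all shared genes up by a median of 0.149, it was −0.03 and no longer called (adjusted p = 0.421), and with the library scaling kept it was −0.19 (adjusted p = 5.3e-05). The 2 main TERF2 transcripts differed in what they did. TERF2-201, the full transcript of 10 exons, had an LFC of −0.05 (adjusted p = 0.565), and TERF2-211, a transcript of 4 exons annotated as coding, fell with an LFC of −0.65 (adjusted p = 3.8e-05), but neither share of the gene was called changed (adjusted p = 0.797 and 0.373). For TERF1, the coding transcripts TERF1-201 and TERF1-202 fell with LFCs of −0.80 and −0.64, and the retained-intron transcript TERF1-206 had an LFC of 0.33 (adjusted p = 0.185). The share of TERF1 counts on protein_coding transcripts was 91.0% ± 1.7 (SD, n = 10) in vehicle and 83.2% ± 2.1 (SD, n = 10) in nutlin, with no overlap between the groups. Among the 10 genes this held only for TERF1 and ACD. How often it holds among all genes was not computed.

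TERF2IP, the partner of TERF2, was the only shelterin gene called higher. It lay at 123, 131 and 154 CPM in vehicle and at 162, 171 and 181 CPM in nutlin. Every nutlin sample was above every vehicle sample. The LFC was 0.36 (SE 0.04, adjusted p = 4.23e-10), a 1.28-fold rise, and 57.4% of all genes tested, and 72.9% of those that averaged 1 CPM or more, had a lower LFC. More than 99% of its counts in each group were on the coding transcript TERF2IP-201.

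POT1 and ACD, which form the part of shelterin that holds the overhang and recruits telomerase, fell by similar amounts. POT1 lay at 23.8, 25.7 and 31.0 CPM in vehicle and at 14.8, 17.4 and 19.7 CPM in nutlin, and the groups did not overlap. Its LFC was −0.63 (SE 0.05, adjusted p = 2.56e-11). The counts of POT1 were spread over 17 transcripts, of which 14 were tested and none of these was called SDE on its own. POT1-201, the most abundant, held 50.7% ± 16.1 (SD, n = 10) of them in vehicle and 39.4% ± 18.0 (SD, n = 10) in nutlin. By the mean over all samples, POT1-210 and POT1-209, both annotated as targets of nonsense-mediated decay, came next. The coding POT1-202, named after its values were seen, was close to POT1-209 in that mean (35.7 and 35.9 estimated counts). It was above POT1-209 in vehicle (means of 42.5 and 35.3) and below it in nutlin (28.9 and 36.5). How kallisto divided reads among these transcripts varied widely between replicates, so the sum over the gene is firmer than any of its parts.

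ACD lay at 35.6, 39.9 and 43.97 CPM in vehicle and at 23.2, 24.8 and 31.1 CPM in nutlin, again with no overlap. Its LFC was −0.62 (SE 0.05, adjusted p = 9.08e-12). The fall was uneven among its transcripts. The coding ACD-212 had 264, 293 and 340 estimated counts (lowest, median and highest) in vehicle and 109, 150 and 178 in nutlin, with an LFC of −1.02 (adjusted p = 1.25e-08). ACD-210, which keeps 3 introns, had 98.2, 157 and 189 estimated counts in vehicle and 116, 132 and 179 in nutlin, with an LFC of −0.11 (adjusted p = 0.521). ACD-206, which keeps most introns, had an LFC of −0.45 (adjusted p = 0.015). What tells ACD-212 and ACD-210 apart is shown at the first of the 3 introns, from GRCh38 on the minus strand of chromosome 16, with the 15 bases after the end of exon 4 of ACD-212 in capitals:
ACD-212: acgggtgcctggttgCAACCAAGACTTAGA
ACD-210: acgggtgcctggttgGTAAGTGATGCCTCC
In ACD-212 the end of exon 4 (chr16:67659537-67659551) runs into exon 5 (chr16:67659405-67659419), and in ACD-210 it runs on into the intron of 117 bases (chr16:67659420-67659536). The spliced form occurs in 6 and the unspliced form in 5 of the 12 ACD transcripts in the files. Protein_coding transcripts held 50.9% ± 4.6 (SD, n = 10) of ACD counts in vehicle, with a range of 47.0% to 61.4%. In nutlin they held 38.2% ± 6.5 (SD, n = 10), with a range of 26.7% to 45.3%, so that the groups did not overlap. As for TERF1, how often this holds among all genes was not computed. The tests of each single transcript against the rest of the gene did not call a change of share (adjusted p = 0.288 for ACD-212 and 0.252 for ACD-210). With protein_coding transcripts alone and the library scaling kept, the LFC of ACD was −1.04 (adjusted p = 7.3e-11).

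TINF2, the hub that links TERF1, TERF2 and ACD, was the 1 gene of the 10 that was not called. It lay at 21.0, 24.6 and 27.6 CPM in vehicle and at 21.6, 23.4 and 26.3 CPM in nutlin. The nutlin range lay within the vehicle range. The LFC was −0.06 (SE 0.05, adjusted p = 0.385), and its sign changed with the filter on low counts (0.02 with filterByExpr). None of its 9 transcripts tested was called SDE.

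Levels of different genes were set side by side as TPM, which is per effective length, without a test. In vehicle the order was TERF2IP at 71.3 ± 4.1 TPM, DAXX at 43.3 ± 3.8, ACD at 30.7 ± 1.1, ATRX at 29.4 ± 3.1, TERF2 at 20.3 ± 2.7, TERF1 at 16.9 ± 2.8, TINF2 at 16.1 ± 1.3, RTEL1 at 15.8 ± 1.1, POT1 at 15.3 ± 2.9 and TERT at 3.23 ± 0.87 (SD, n = 10 each). TERF2IP, DAXX and TERT were set apart from their neighbours in every sample, whereas ACD and ATRX, and TERF1, TINF2, RTEL1 and POT1, could not be ordered, since each was above the next in only 4 to 7 of the 10 samples. In nutlin TERF2IP at 91.3 ± 3.8 TPM and ATRX at 38.7 ± 3.4 TPM came first, and the ranges of DAXX at 20.4 ± 2.1, ACD at 19.0 ± 2.7 and TERF2 at 17.7 ± 2.2 TPM overlapped. TERT stayed last at 0.62 ± 0.19 TPM.

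The summed TPM of the 6 shelterin genes was 171 ± 9.3 (SD, n = 10) in vehicle and 165 ± 7.1 (SD, n = 10) in nutlin, with overlapping ranges of 154 to 182 and 149 to 172. Its composition differed. TERF2IP took 41.8% ± 2.0 (SD, n = 10) of the sum in vehicle and 55.4% ± 2.2 (SD, n = 10) in nutlin, and ACD took 18.0% ± 0.7 and 11.5% ± 1.4, with no overlap between the groups for either gene. TINF2 held 9.43% ± 0.87 and 9.01% ± 0.51. The ratio of TERF2IP to TERF2 in TPM was 3.56 ± 0.46 (SD, n = 10) in vehicle and 5.24 ± 0.71 (SD, n = 10) in nutlin. TPM values depend on how reads were divided between long and short transcripts, and the levels of POT1, ATRX and ACD in vehicle were 5.39, 13.6 and 16.3 TPM when only protein_coding transcripts were counted. TERT was then at 0.916 TPM in vehicle and 0.291 TPM in nutlin, against 3.23 and 0.62 TPM over all its transcripts.

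**Figure D2:**
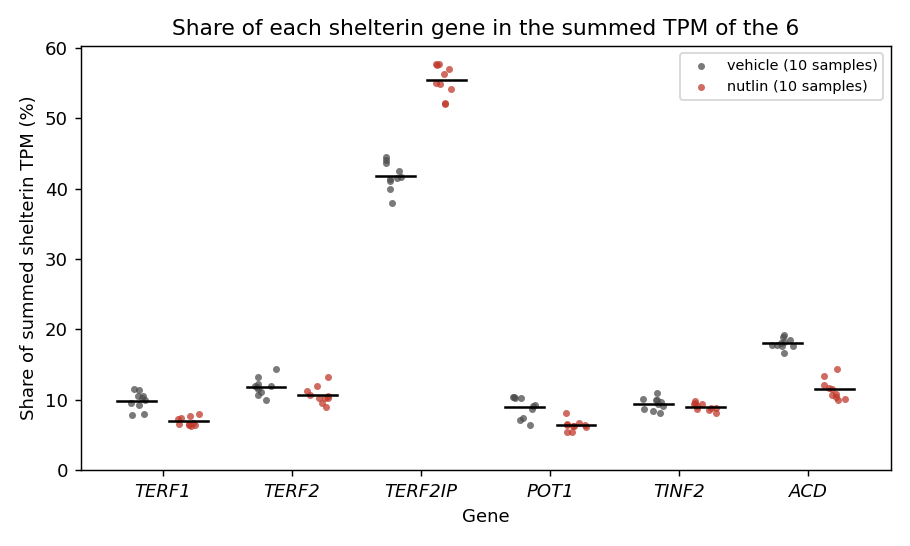
Share of each of the 6 shelterin genes in their summed TPM, in percent, for each of the 10 vehicle samples (grey) and the 10 nutlin samples (red), with a bar at the group mean. TERF2IP rose from a mean of 41.8% to 55.4% and ACD fell from 18.0% to 11.5%, while TINF2 stayed near 9%.

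The partners ATRX and DAXX moved apart. DAXX, the H3.3 chaperone, lay at 69.1, 79.9 and 86.7 CPM in vehicle and at 35.6, 38.4 and 40.4 CPM in nutlin. Every nutlin sample was below every vehicle sample by a wide margin. The LFC was −1.03 (SE 0.04, adjusted p = 3.42e-20), a 2.05-fold fall, the firmest of the 10 by its adjusted p. The coding transcripts DAXX-202 and DAXX-201, which both have 8 exons, fell with LFCs of −0.82 (adjusted p = 5.5e-07) and −1.39 (adjusted p = 4.3e-07), and DAXX-203 varied too much between replicates to be called (LFC −1.02, adjusted p = 0.458).

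ATRX, the remodeller that works with DAXX, lay at 96.2, 117 and 156 CPM in vehicle and at 128, 140 and 147 CPM in nutlin. All 10 nutlin samples were above the vehicle median, but none was above the highest vehicle sample. The LFC was 0.22 (SE 0.06, adjusted p = 0.0011), and 51.3% of all genes tested, and 66.8% of those that averaged 1 CPM or more, had a lower LFC. With protein_coding transcripts alone and the library scaling kept, the LFC was 0.10 and the call was lost (adjusted p = 0.176), and with effective lengths as an offset it was 0.39 (adjusted p = 6.1e-08). The ratio of ATRX to DAXX in TPM was 0.68 ± 0.06 (SD, n = 10) in vehicle, with a range of 0.58 to 0.74, and 1.91 ± 0.24 (SD, n = 10) in nutlin, with a range of 1.59 to 2.32.

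ATRX was also the only gene of the 10 with a called change in transcript usage, that is, in the share of a gene's counts on a transcript against the rest of the gene. Of 46 transcripts of the 10 genes tested for usage, 2 were called at 5% FDR, ATRX-206 and ATRX-214, against 7.93% of all transcripts tested for usage. For the levels of single transcripts, 21 of 94 tested were SDE, 9 higher and 12 lower, against 23.3% of all transcripts tested. The most abundant transcripts, ATRX-202 and ATRX-201, were not called themselves, with LFCs of 0.15 (adjusted p = 0.304) and −0.30 (adjusted p = 0.080).

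ATRX-206 is annotated as a target of nonsense-mediated decay. It has 36 exons, those of ATRX-201 (with a shorter last exon) plus an extra exon of 123 bases (chrX:77690803-77690925), in which the reading frame meets a stop codon. The join is shown beside that of ATRX-201, from GRCh38 on the minus strand, with the 15 bases of exon 7 of ATRX-201 in capitals and, in ATRX-206, the stop codon in capitals:
ATRX-201: tcaaaaaacgcggagAAGATGGGCTTCATG
ATRX-206: tcaaaaaacgcggagtgctgtggTGAatat
Both begin with the end of exon 6 (chrX:77693824-77693838). The join of ATRX-206 is found in none of the other 17 ATRX transcripts in the files. Its estimated counts were below 1 in 7 of 10 vehicle samples, with a highest value of 138 in replicate 4, and in 1 of 10 nutlin samples, with a median of 126 and a highest value of 369. The groups overlapped because of vehicle replicates 4 and 12 and of nutlin replicate 11, which had 0. ATRX-206 held 1.05% ± 2.25 (SD, n = 10) of ATRX counts in vehicle and 6.84% ± 5.81 (SD, n = 10) in nutlin. Its share was called higher (log2 change of usage 1.72, adjusted p = 4.7e-06), whereas its own level was not called (LFC 2.70, adjusted p = 0.079). The extra exon is short beside the 10455 bases of the transcript, so that few reads can show it directly. The last exon also differs: ATRX-201 runs to chrX:77504880, whereas ATRX-206 ends at chrX:77505713, as ATRX-202 does. ATRX-202 lacks exon 6 as well as the extra exon. Reads over the join were not counted, so that the share on ATRX-206 is not a direct measure of the extra exon. ATRX-206 was not tested when a minimum count of 50 was required. With that minimum the share of ATRX-201 was called lower (log2 change of usage −0.28, adjusted p = 0.026), against −0.36 without it (adjusted p = 0.059).

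ATRX-214, a coding transcript of 14 exons that covers the first part of the gene, had 19.6, 33.5 and 91.5 estimated counts (lowest, median and highest) in vehicle and 74.6, 125 and 190 in nutlin. Vehicle replicate 3 alone overlapped the nutlin samples. Its level rose with an LFC of 1.66 (adjusted p = 6.9e-05), and its share of the gene rose from 2.14% ± 1.10 (SD, n = 10) to 5.87% ± 1.87 (SD, n = 10), with an adjusted p of 0.016. Protein_coding transcripts together held 90.2% ± 2.1 (SD, n = 10) of ATRX counts in vehicle and 83.0% ± 6.4 (SD, n = 10) in nutlin.

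**Figure D3:**
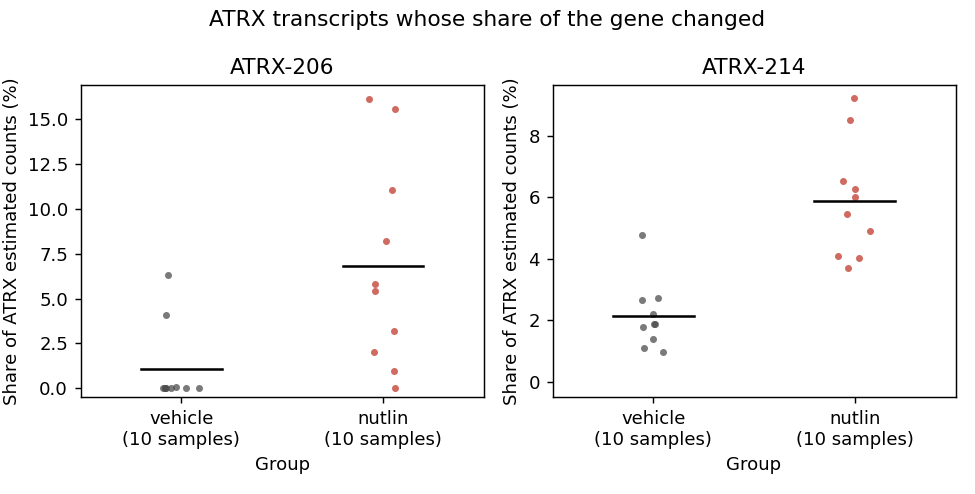
Share of ATRX estimated counts, in percent, on ATRX-206 (left) and ATRX-214 (right) in each of the 10 vehicle samples (grey) and the 10 nutlin samples (red), with a bar at the group mean and a separate axis for each transcript. ATRX-206 was near 0 in most vehicle samples and spread up to 16.1% in nutlin, and ATRX-214 rose from a mean of 2.14% to 5.87%.

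RTEL1 lay at 48.6, 53.2 and 59.1 CPM in vehicle and at 28.5, 34.3 and 38.1 CPM in nutlin, with no overlap. The LFC was −0.63 (SE 0.05, adjusted p = 6.77e-13). Its main coding transcript RTEL1-203 fell with an LFC of −0.84 (adjusted p = 2.6e-08). The coding RTEL1-212, next in abundance, had an LFC of −1.59 and was not called (adjusted p = 0.054). RTEL1-209, annotated as a target of nonsense-mediated decay, had an LFC of 0.64 (adjusted p = 0.527). It varied widely, from 0 to 92.7 estimated counts in vehicle and from 0.01 to 172 in nutlin. With effective lengths as an offset the LFC of the gene was nearer 0, at −0.37, and still called (adjusted p = 9.4e-06). RTEL1 shares most of its exons with the read-through gene RTEL1-TNFRSF6B on the same strand of chromosome 20, so that the division of reads between them is uncertain. RTEL1-TNFRSF6B had 34.7 ± 3.9 CPM (SD, n = 10) in vehicle and 25.02 ± 4.1 CPM (SD, n = 10) in nutlin, an LFC of −0.47 (adjusted p = 6.6e-06), and with its counts added the LFC of RTEL1 was −0.57.

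Other genes overlap the 10 on the opposite strand. Those with a mean of over 10 estimated counts were CYB5B (TERF2), KARS1 (TERF2IP), POT1-AS1 (POT1), GMPR2 (TINF2) and CARMIL2 (ACD). The kit keeps the strand, but whether kallisto was run with it is not given in the sources used here.

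**Figure D4:**
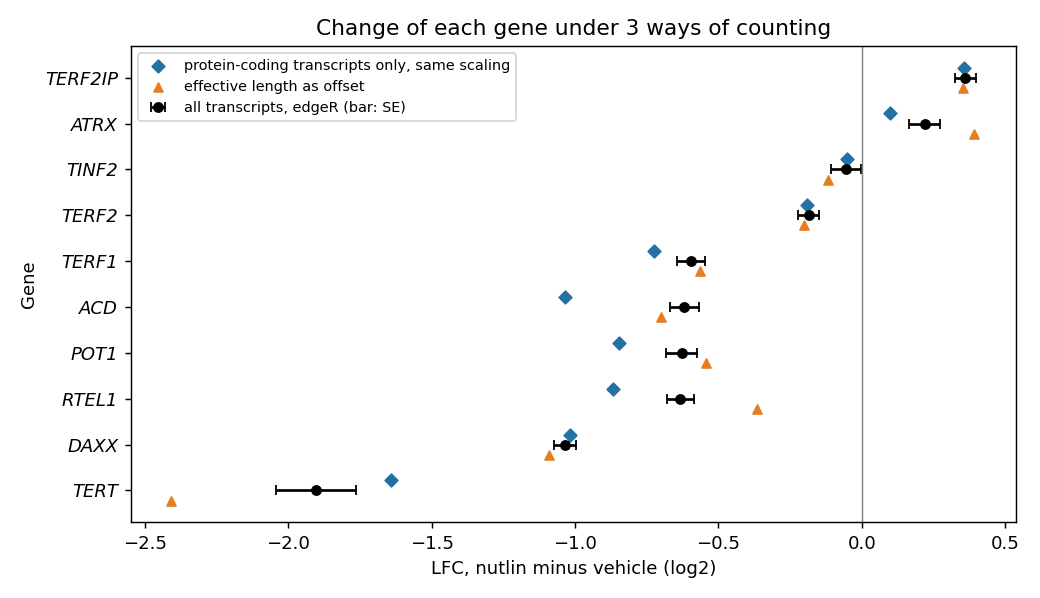
LFC of each gene, nutlin minus vehicle, on the log2 scale, from the edgeR fit on all transcripts (black circles, with bars of 1 SE), from protein_coding transcripts with the same library scaling (blue diamonds) and with effective lengths as an offset (orange triangles). The 3 values nearly coincide for TERF2IP, TERF2 and DAXX, and lie far apart for TERT (−1.90, −1.64 and −2.41), ACD (−0.62, −1.04 and −0.70) and RTEL1 (−0.63, −0.87 and −0.37). They also spread for POT1 (−0.63, −0.85 and −0.54) and ATRX (0.22, 0.10 and 0.39).

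The genes that act with telomerase mostly fell along with TERT. Of 14 genes for the telomerase particle and its assembly, 12 were called lower and 2 higher, with a median LFC of −0.62. The counts called in this list and in those below have to be read against the whole dataset. There 58.8% of all genes tested were SDE, 26.5% lower and 32.3% higher, and 80.2% of those that averaged 1 CPM or more. Being called is thus common among expressed genes and by itself says little about a list. DKC1 fell from 260 ± 11.4 to 145 ± 12.8 CPM (SD, n = 10; LFC −0.85, SE 0.04, adjusted p = 7.0e-17). NOP10, a partner of DKC1 in the same particle, fell with an LFC of −0.82 (adjusted p = 3.5e-12), and RUVBL2, an ATPase needed for assembly, with an LFC of −0.81 (adjusted p = 4.3e-15). TERC was higher, at 0.32 ± 0.27 CPM in vehicle and 2.50 ± 0.88 CPM in nutlin (SD, n = 10; LFC 2.96, SE 0.34, adjusted p = 8.3e-09), with no overlap between the groups. The mature TERC has no poly(A) tail and the libraries were made from poly(A) RNA, so that this value is not the level of the working RNA. The other gene called higher was TEP1 (LFC 0.67), a telomerase-associated protein, chosen for mention after its value was seen.

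CST is the complex that ends telomerase action and brings in DNA polymerase alpha-primase to fill the C-rich strand. All 7 genes of this list were SDE, against 80.2% of genes that averaged 1 CPM or more. Of the 7, 5 were lower and 2 higher, with a median LFC of −1.51. The 4 polymerase and primase subunits fell most, POLA2 with an LFC of −2.25 (adjusted p = 1.7e-24), POLA1 with −1.76 (adjusted p = 4.0e-24), PRIM1 with −1.75 (adjusted p = 5.7e-22) and PRIM2 with −1.51 (adjusted p = 1.4e-20). These 4 serve replication of the whole genome as well. The 3 subunits of CST itself did not move as 1, with LFCs of 0.41 for CTC1, −0.40 for STN1 and 0.75 for TEN1, and these too were chosen after their values were seen.

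Of the 17 nucleases, helicases and remodellers, 13 were called lower, 2 higher and 2 were not called, with a median LFC of −1.11. The helicases BLM and PIF1 fell with LFCs of −2.40 (adjusted p = 4.9e-25) and −2.20 (adjusted p = 1.3e-21), RMI2, which works in a complex with BLM, with −2.33 (adjusted p = 9.7e-20), and the exonuclease EXO1 with −2.12 (adjusted p = 1.0e-28). Of the 13 other telomere-binding or maintenance genes tested (MAJIN, of 14 listed, was not tested), 6 were called lower, 4 higher and 3 were not called, with a median LFC of −0.07. TTI1, TTI2 and TELO2, which together help PI3K-related kinases to fold, fell with LFCs of −0.91, −0.54 and −0.46, and RIF1, a replication timing factor first found at yeast telomeres, with −0.49. Their adjusted p ranged from 4.9e-18 to 1.4e-07. With effective lengths as an offset, 6 of the 13 were SDE instead of 10.

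Of the 12 genes for H3.3, its chaperones and PML bodies, where DAXX resides, 7 were called lower and 4 higher, with a median LFC of −0.38. ASF1B, the histone chaperone tied to proliferating cells, fell from 44.5 ± 3.5 to 5.47 ± 0.81 CPM (SD, n = 10; LFC −3.02, SE 0.07, adjusted p = 1.7e-25). Its paralog ASF1A fell less, with an LFC of −0.72 (adjusted p = 6.8e-12). H3-3A, a gene for H3.3 itself, fell with an LFC of −0.83 (adjusted p = 8.6e-17). UBN2, a subunit of the HIRA complex that places H3.3 in genes, rose with an LFC of 0.58 (adjusted p = 6.6e-10). The complex did not move as 1. HIRA and UBN1 were called lower, with LFCs of −0.39 and −0.45, and CABIN1 was not called (LFC 0.03). HIRA, UBN1 and CABIN1 were chosen after their values were seen.

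**Figure D5:**
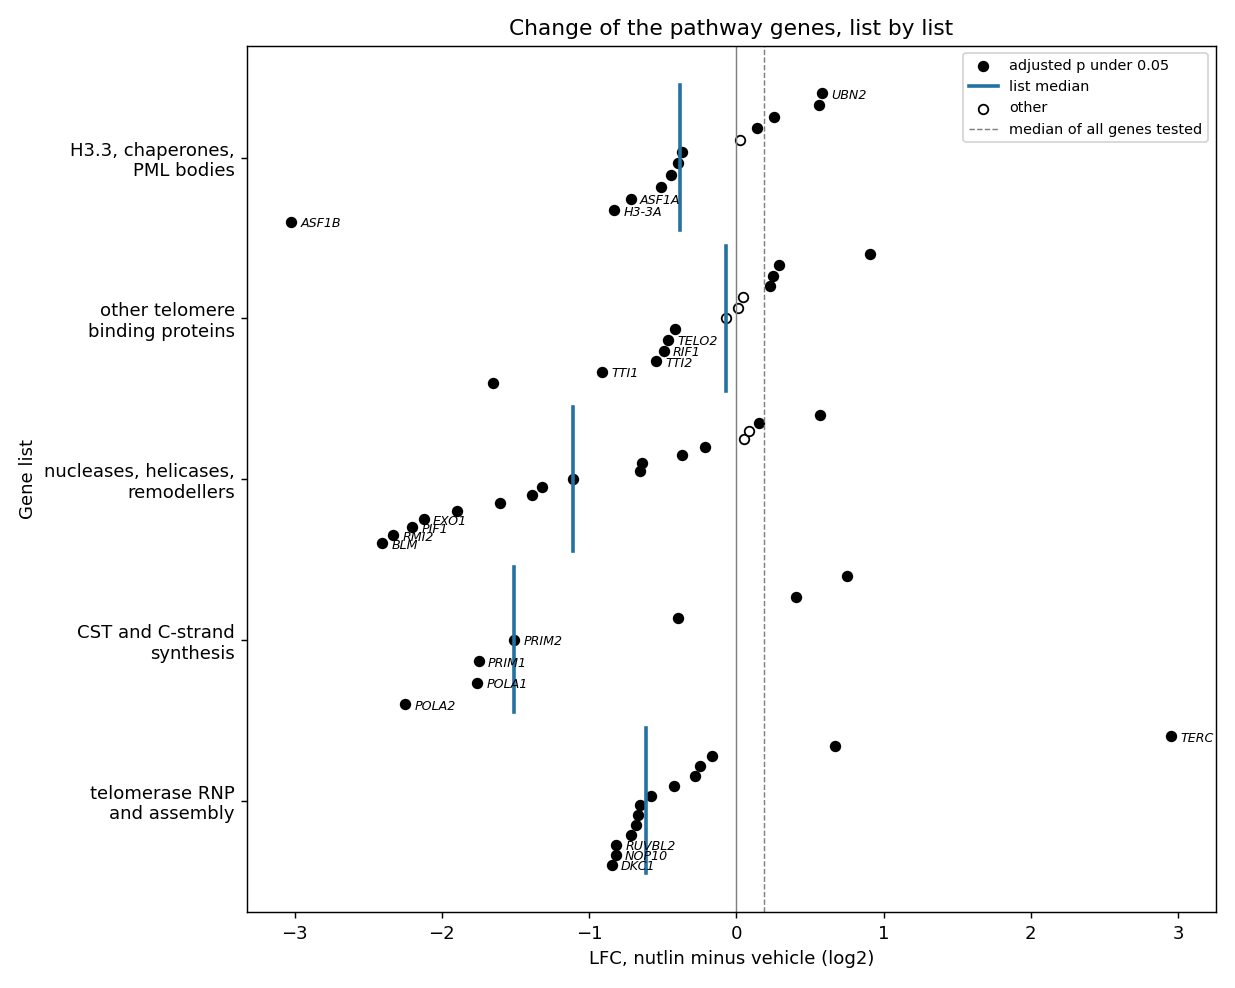
LFC (nutlin minus vehicle, log2) of every tested gene in the 5 lists of telomere pathway genes, 1 row of points per list, with filled points for an adjusted p under 0.05, a blue bar at the list median and a dashed line at the median of all genes tested (0.19). The list medians run from −1.51 for CST and C-strand synthesis to −0.07 for the other telomere-binding genes, and TERC (2.96) lies alone at the right.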

How the data were processed

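The 20 samples were grouped by their labels. The authors quantified reads with kallisto v0.42.4 on hg38 and deposited an estimated count, a TPM value and an effective length for each of 198968 transcripts. By Ensembl identifier, 191106 of them (96.05%) were found in GENCODE release 44, and the rest were left out. The share of counts kept was 96.7% to 96.8% in vehicle and 95.7% to 95.9% in nutlin. Estimated counts were summed per gene and rounded, and of the 2 identifiers for PINX1 the one with more counts was kept. mRNA and lncRNA genes with at least 1 count per condition entered edgeR 4.0.16 in R 4.3.3 (quasi-likelihood F-test, TMM, condition only, Benjamini-Hochberg adjustment over all genes, 5% FDR). Transcripts were tested likewise, and transcript usage with diffSpliceDGE after filterByExpr (minimum count 10). The deposited TPM, summed per gene, served to set genes side by side. Junction sequences were read from GRCh38 and checked against GENCODE transcripts.

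The 10 genes and the lists were chosen with earlier results of these data known. Named transcripts had a mean of at least 10 estimated counts and were the 3 most abundant of a gene or had a changed usage. Named list genes were the 4 SDE genes of at least 1 CPM with the largest absolute LFC, and TERC and DKC1. Alternatives were DESeq2 1.42.0, limma 3.58.1 with voom or on log2(TPM + 1) and log2(TPM + 0.1), DESeq2 size factors, other filters, 1% FDR, effective lengths as an offset, protein_coding transcripts only, read-through counts added, the replicate number as a block and each sample left out. Chosen after seeing the data were the 16 samples with shared numbers without the block, unmatched transcripts in the library sizes, and protein_coding transcripts with the library scaling of all transcripts. The fits were tested on simulated data. A further marker gene, and the neuroblastoma marker list as a whole, are not reported here. Plots were drawn with matplotlib 3.10.9 in Python 3.11.15.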

Additional observations from a re-analysis of the deposited data

Results flagged for a closer look

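Among 120 groups of 10 samples (31 genes and 29 transcripts, in 2 conditions each), 5 held a sample whose gap to its nearest neighbour was large beside the range of the group, where chance flags about 1 group in 20. TERF1 in vehicle replicate 5 was at 27.6 CPM, with the nearest vehicle sample at 32.7 CPM. TERF2IP in vehicle replicate 10 was at 154 CPM, with the nearest at 139 CPM. RMI2 in nutlin replicate 7 was at 4.76 CPM, with the nearest at 3.34 CPM, and H3-3A in nutlin replicate 6 was at 745 CPM, with the nearest at 667 CPM. DAXX-201 in nutlin replicate 1 had 61.4 estimated counts, with the nearest at 124. TERF1, TERF2IP and DAXX were SDE with any 1 sample left out.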

How the results depend on the processing

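Of 602 values recomputed under the alternatives, 576 kept their direction and their side of the threshold, or stayed within the range allowed for a count or level. Leaving out any 1 sample changed no call among the 10 genes, and 9 were SDE each time. The number of SDE genes ranged from 11449 to 17126. With protein_coding transcripts only, TMM moved the LFC of all shared genes up by a median of 0.149. TINF2 then had an LFC of 0.11 and TERF2 of −0.034 (adjusted p = 0.421), whereas with the library scaling of all transcripts they were at −0.05 and −0.19 (adjusted p = 5.3e-05). ATRX in that fit had an LFC of 0.10 (adjusted p = 0.176). The LFC of TINF2 was 0.022 with filterByExpr, which moved shared genes up by 0.077. Of the other telomere-binding genes 6 were SDE with effective lengths as an offset and with limma on either log2 TPM scale, instead of 10. At 1% FDR 1 transcript, ATRX-206, had a changed usage. Levels in TPM from protein_coding transcripts only, in vehicle and nutlin, were 0.916 and 0.291 for TERT, 5.39 and 3.42 for POT1, 13.3 and 12.4 for TINF2, 16.3 and 7.72 for ACD, 13.6 and 18.04 for ATRX, 32.3 and 15.96 for DAXX, and 11.7 and 6.52 for RTEL1. In nutlin they were 9.88 for TERF1 and 15.3 for TERF2. With TPM over DESeq2 size factors, TERF2IP in nutlin was at 86.8 and ACD in vehicle at 32.3. The cause of these shifts was not tested.

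Samples with the same replicate number did not deviate together (correlations over 8 pairs from −0.048 to 0.077, and only 1 sample correlated best with its own number). With the replicate number as a block in these 16 samples, 14276 genes and 9 of the 10 were SDE, against 14992 and 9 without the block, and no call among the 10 or in the 5 lists' counts moved by over 1.5 times. The log2 change of usage of ATRX-206 was 4.73 in the 16 samples with the block, against 1.72 in all samples without it. The share of another ATRX transcript, ATRX-218, was called higher in that block fit (1.75, adjusted p = 0.022) and not in all samples (1.04, adjusted p = 0.151). Usage was not fitted in the 16 samples without the block. The block and the samples left out thus cannot be told apart here. ATRX-218 was named after its values were seen. The fits of single transcripts take no account of quantification error between isoforms, so that their p-values may be too small. Of the 10 genes TERT, with the fewest counts, is the least precise (SE 0.14). TERC (SE 0.34) and some other genes of the lists are less precise still.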
